A study of Mus musculus with 6 samples.

Results

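The regulators of epithelial and mesenchymal state form a small circuit of transcription and splicing factors, and 10 of them were followed here by gene symbol in the annotation of the array. They are the mesenchymal drivers *Snai1*, *Snai2*, *Zeb1*, *Zeb2* and *Twist1*, and the epithelial guardians *Ovol1*, *Ovol2*, *Grhl1*, *Grhl2* and *Esrp1*. Of these 10 genes, 9 were measured among 19505 named genes on 22206 probe sets, each by 1 probe set. *Zeb2* was not analysed here.

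RNA came from luminal mammary epithelial cells of Sox9-GFP; C3(1)/Tag mice, FACS-sorted by reporter level into a Sox9-GFP high and a Sox9-GFP low fraction, with 3 one-colour arrays of each sort. By the paper's methods the mice were female, of an FVB/NJ background and about 3 months old. Both sorts carried both transgenes, a Sox9-EGFP reporter and SV40 large T antigen, a viral oncoprotein that in this model is made mainly in ER-negative luminal cells. No sort without large T antigen was analysed here, so the arrays compare reporter levels within the tumour-prone gland. The glands of 3 animals gave both sorts, but the labels number the arrays 1 to 3 without naming an animal, so p-values measure the spread between these arrays. *Sox9*, on whose reporter the cells were sorted, was 2.02-fold higher in Sox9-GFP high cells (adjusted p = 0.0360 from limma), which checks the labels and is no finding. The array medians lay between 5.15 and 5.21 on the deposited log2 scale. Of 10 luminal markers, 0 were called higher and 2 lower, beside 4.0% of all probe sets called higher and 3.20% lower. The lower ones were *Elf5*, described below, and the keratin *Krt19*, 3.14-fold (adjusted p = 0.00130 from limma). All 10 markers lay above the median on at least 1 array. The keratins *Krt8* and *Krt18* lay between 16.91 and 17.70 on every array, and *Krt7* was 1.96-fold higher (adjusted p = 0.0708 from limma, and 0.00806 with the array number as a block). With that block 6.32% of all probe sets were called higher and 4.99% lower.

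In epithelia, the SNAI, ZEB and TWIST factors repress junction and polarity genes during an epithelial-mesenchymal transition, and they are also made by fibroblasts and other mesenchymal cells. The OVO-like zinc finger factors and the grainyhead-like factors oppose them: OVOL factors repress *Zeb1*, and GRHL2 activates *Cdh1* and claudin genes. ESRP1 acts on RNA and keeps the epithelial splice forms of genes such as *Fgfr2* and *Cd44*. In the mammary gland, *Snai2* marks basal cells, while the grainyhead-like factors and *Esrp1* are made in luminal cells.

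SNAI and ZEB factors bind an E-box, CACCTG, which reads CAGGTG on the other strand. The 250 bases before the start are shown for *Snai1*, the only measured regulator with this E-box among those with a window, and for *Epcam* and *Crb3*, epithelial surface and polarity genes whose values are given below. The sequences are from RefSeq (GRCm38.p6), 5′ to 3′ on the plus strand, with E-boxes in capitals, at chr2:167537945-167538194, chr17:87635729-87635978 and chr17:57061951-57062200.
Snai1: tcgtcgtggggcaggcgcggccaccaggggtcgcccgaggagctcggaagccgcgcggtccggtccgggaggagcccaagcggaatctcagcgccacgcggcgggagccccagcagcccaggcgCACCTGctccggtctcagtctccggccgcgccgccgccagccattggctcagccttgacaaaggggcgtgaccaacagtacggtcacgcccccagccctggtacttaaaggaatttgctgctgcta
Epcam: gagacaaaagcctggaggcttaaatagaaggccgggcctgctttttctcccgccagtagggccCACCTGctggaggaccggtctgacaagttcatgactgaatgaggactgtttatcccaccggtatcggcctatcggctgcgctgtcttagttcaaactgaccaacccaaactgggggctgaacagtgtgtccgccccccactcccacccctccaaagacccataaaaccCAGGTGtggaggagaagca
Crb3: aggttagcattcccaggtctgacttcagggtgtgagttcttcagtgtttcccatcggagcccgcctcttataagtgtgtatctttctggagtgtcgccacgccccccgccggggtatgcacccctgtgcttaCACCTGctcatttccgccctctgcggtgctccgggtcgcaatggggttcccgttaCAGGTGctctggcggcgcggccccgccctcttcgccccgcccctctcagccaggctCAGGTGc
The E-box of *Snai1* began at base -126, counted back from the start, those of *Epcam* at -187 and -19, and those of *Crb3* at -118, -63 and -7. *Crb3* had a second window with another start, not printed, in which the same E-boxes began at -148, -93 and -37. Windows were given for 4 of the 9 measured regulators, and those of *Twist1*, *Ovol2* and *Grhl1* held no such letters. Of 19 measured epithelial junction and polarity genes with a window, 12 held the E-box (63.2%), beside 5252 of 27025 genes in all (19.4%). Of 13 mesenchymal programme genes with a window, 0 held it. A match describes letters and is no evidence of binding.

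No mesenchymal driver differed between the sorts past the threshold, and all 4 were dim on every array. Of the 9 regulators, 0 were called by limma at an adjusted p under 0.05 over all probe sets, where 7.20% of probe sets were called, and 1 of them, *Ovol1*, had an unadjusted p under 0.05, as did 20.6% of probe sets. As the samples are bulk RNA, fewer cells of a type and less RNA per cell cannot be told apart in any of these values.

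*Snai1*, the zinc finger repressor that opens many transitions, had log2 values of 4.47, 3.97 and 4.41 in Sox9-GFP high cells and 4.10, 4.38 and 4.32 in Sox9-GFP low cells. The sorts overlapped, and the difference was 0.01 (95% interval -0.42 to 0.45, adjusted p = 0.981 from limma). *Snai2*, its paralog and a factor of basal mammary cells, had values of 3.93, 3.64 and 3.76 against 3.85, 3.59 and 3.63. Its difference of 0.09 (interval -0.30 to 0.47, adjusted p = 0.853) was smaller than the spread within either sort.

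*Zeb1*, the zinc finger homeobox repressor of *Cdh1*, had values of 5.16, 4.42 and 4.84 in Sox9-GFP high cells and 4.76, 4.47 and 4.63 in Sox9-GFP low cells. It had the highest values of the drivers, and the lowest and the highest array were both Sox9-GFP high. The difference was 0.19 (interval -0.29 to 0.66, adjusted p = 0.717). *Twist1*, a basic helix-loop-helix factor, had values of 4.02, 4.05 and 4.20 against 3.83, 3.86 and 4.29. Its difference was 0.10 (interval -0.32 to 0.51, adjusted p = 0.848), and the highest array was Sox9-GFP low.

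**Figure D1:**
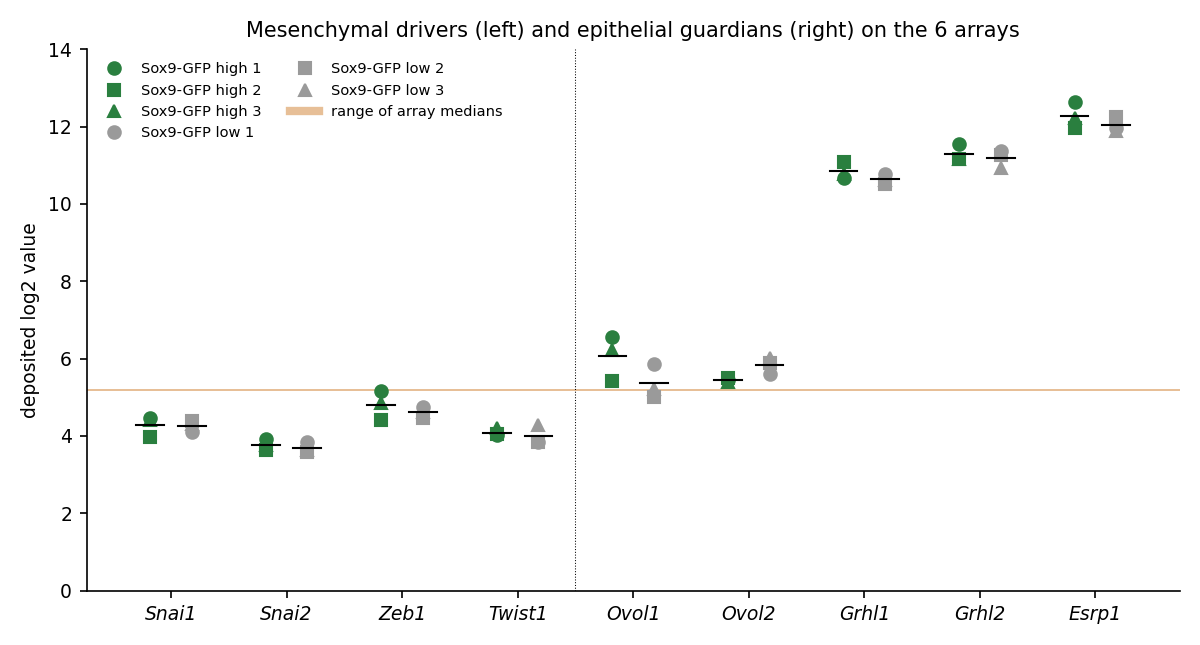
Deposited log2 value (vertical axis) of each regulator on each of the 6 arrays, with Sox9-GFP high in green, Sox9-GFP low in grey, bars at the sort means and a band at the array medians. The 4 drivers lie between 3.59 and 5.16, each value below the median of its own array, while *Grhl1*, *Grhl2* and *Esrp1* lie between 10.51 and 12.63.

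All 4 drivers lay below the median of their own array on all 6 arrays. As a gauge of dim signal, 1091 olfactory receptor probe sets had means over the arrays with a median of 3.40 and a 95th percentile of 4.65. The means of *Snai1* (4.27), *Snai2* (3.73) and *Twist1* (4.04) lay under that percentile, and that of *Zeb1* (4.71) just above it. Probes differ in brightness and the deposited values give no background, so a level this low cannot be told from background and a change hidden in it would not be seen.

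The epithelial guardians were measured at 2 levels: *Grhl1*, *Grhl2* and *Esrp1* were bright and differed little between the sorts, while *Ovol1* and *Ovol2* lay near or somewhat above the array medians and leaned in opposite directions. *Grhl1*, a grainyhead-like factor known from epidermal desmosomes, had values of 10.67, 11.09 and 10.76 in Sox9-GFP high cells and 10.77, 10.51 and 10.63 in Sox9-GFP low cells. The sorts overlapped at a difference of 0.20 (interval -0.20 to 0.61, adjusted p = 0.617 from limma). *Grhl2*, the family member that holds up *Cdh1* and claudin expression, had values of 11.54, 11.17 and 11.17 against 11.36, 11.27 and 10.93. Its difference was 0.11 (interval -0.32 to 0.54, adjusted p = 0.833). *Esrp1*, the splicing regulator, had values of 12.63, 11.95 and 12.22 against 11.97, 12.26 and 11.89, with a difference of 0.23 (interval -0.25 to 0.70, adjusted p = 0.638). The upper bounds of these intervals lie under a 2-fold change, which is 1 on the log2 scale, and a smaller change is not excluded by them.

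*Ovol1*, an OVO-like repressor known from epidermal differentiation, had values of 6.57, 5.42 and 6.22 in Sox9-GFP high cells and 5.87, 5.0 and 5.21 in Sox9-GFP low cells. The sorts overlapped, since Sox9-GFP low replicate 1 lay above Sox9-GFP high replicate 2, but within each array number the Sox9-GFP high one was higher, by 0.70, 0.42 and 1.01. The difference of 0.71, or 1.64-fold (standard error 0.31, interval 0.01 to 1.41), did not pass (adjusted p = 0.232 from limma). With a replicate block for the array number it passed (adjusted p = 0.0369, standard error 0.18, interval 0.30 to 1.12), the only regulator called higher there, where 11.3% of probe sets were called, 6.32% higher and 4.99% lower. It was called in 0 of 9 leave-out fits without the block, each of which omitted 1 array or both arrays of 1 number (differences 0.46 to 1.03, adjusted p = 0.0714 to 0.628). No leave-out fit used the block, so these fits do not check the call made with it.

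*Ovol2*, the paralog that represses *Zeb1*, had values of 5.44, 5.50 and 5.39 in Sox9-GFP high cells and 5.60, 5.89 and 6.01 in Sox9-GFP low cells. Every Sox9-GFP high array lay below every Sox9-GFP low array, as in 11.4% of all probe sets (two-sided p = 0.10 by exact permutation, as low as a design of 3 against 3 can reach). The difference was -0.39, or 1.31-fold lower (standard error 0.18, interval -0.78 to 0.00246, adjusted p = 0.245), and it did not pass with the block either (adjusted p = 0.209). *Ovol2* was the only one of the 9 regulators whose sorts did not overlap, where 25.5% of all probe sets did not overlap in either direction and 14.1% lay wholly higher in Sox9-GFP high cells. That *Ovol1* and *Ovol2* differ in their response was not tested.

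**Figure D2:**
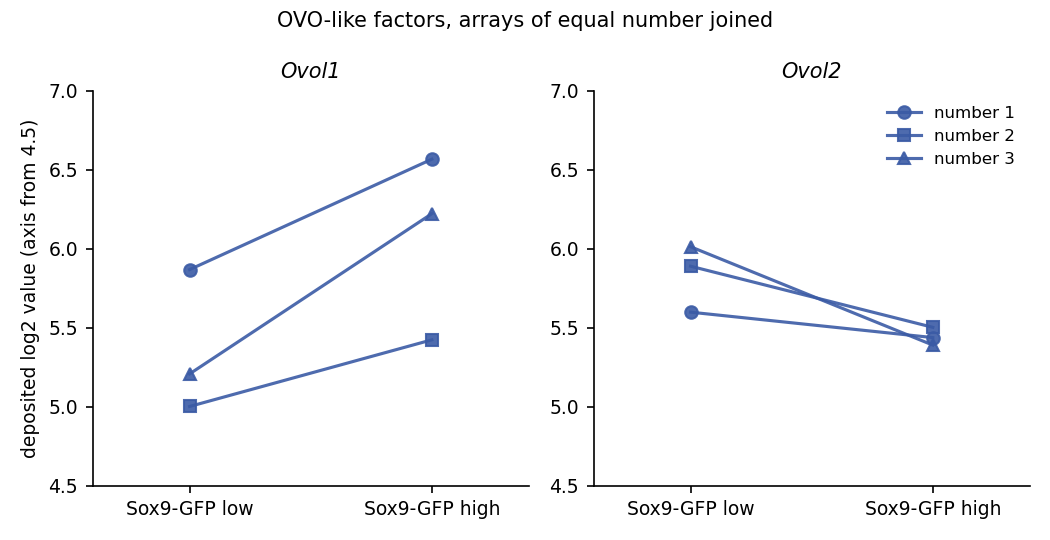
Deposited log2 values (vertical axis, starting at 4.5) of *Ovol1* (left) and *Ovol2* (right), with a line joining the Sox9-GFP low and Sox9-GFP high array of each number. In each number *Ovol1* is higher in Sox9-GFP high cells, by 0.42 to 1.01, and *Ovol2* lower, by 0.16 to 0.62.

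**Figure D3:**
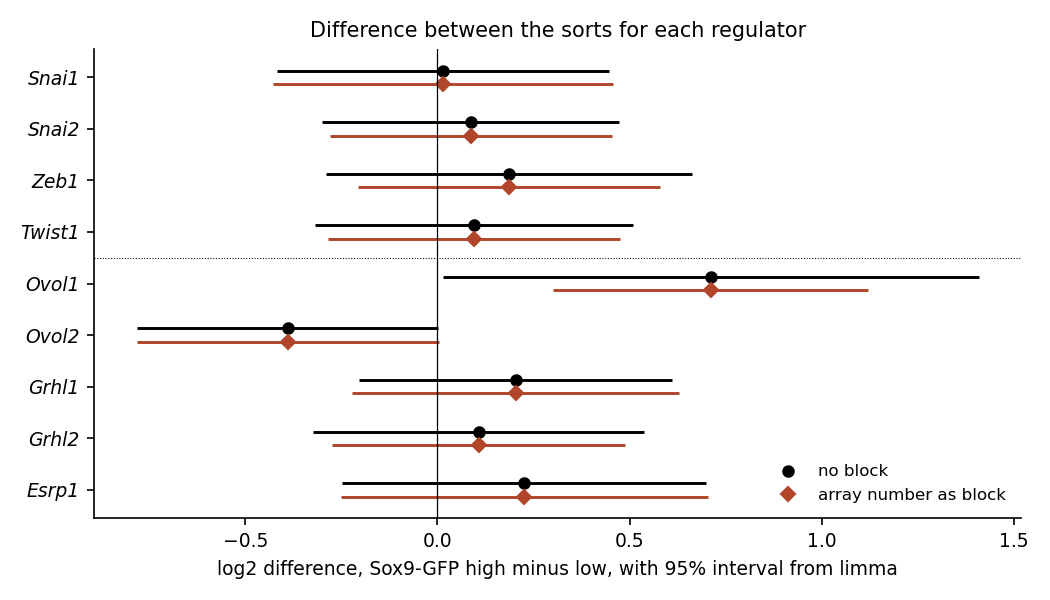
Log2 difference between the sorts (horizontal axis, Sox9-GFP high minus low) with its 95% interval from limma, without (black) and with (red) a replicate block. The intervals of all 4 drivers and of *Grhl1*, *Grhl2* and *Esrp1* span 0 in both fits, and that of *Ovol1* narrows from 0.01 to 1.41 to 0.30 to 1.12 with the block.

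Drivers and guardians were then set side by side, where the drivers' values, which cannot be told from background, limit what the contrast could show. Of the 4 drivers, 4 had a positive difference, with a median of 0.09, and of the 5 guardians 4 did, with a median of 0.20, beside a median of 0.01 over all probe sets. Each gene was then centred on its mean over the 6 arrays and averaged within its role. The drivers had means of 0.20, -0.17 and 0.11 in Sox9-GFP high cells and -0.05, -0.12 and 0.03 in Sox9-GFP low cells. The guardians had means of 0.27, -0.07 and 0.06 against 0.02, -0.11 and -0.16. Guardians minus drivers lay between -0.06 and 0.10 in Sox9-GFP high cells and between -0.19 and 0.07 in Sox9-GFP low cells, so the sorts overlapped. Within array numbers 1, 2 and 3 the guardian mean was higher in Sox9-GFP high cells by 0.25, 0.04 and 0.22, and the driver mean differed by 0.26, -0.06 and 0.08. Of the guardians only *Ovol1* was higher within every number, by 0.70, 0.42 and 1.01. *Ovol2* was lower within every number, and *Grhl1*, *Grhl2* and *Esrp1* changed sign between numbers. The guardian mean thus leans on *Ovol1* and does not describe the guardians as a group. These means are a description of a chosen set, with no test.

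**Figure D4:**
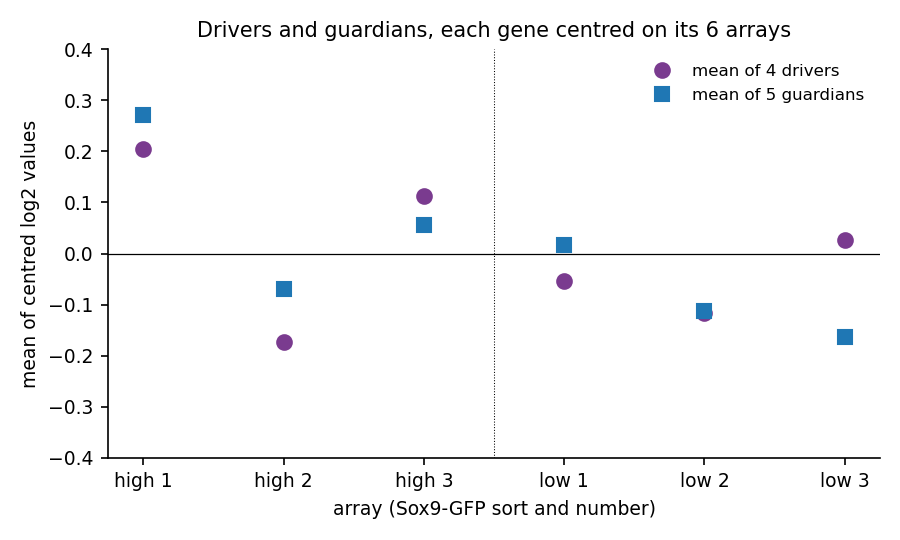
Mean of centred log2 values (vertical axis) of the 4 drivers (circles) and the 5 guardians (squares) on each array (horizontal axis). Both means are highest on Sox9-GFP high replicate 1, at 0.20 and 0.27, and the sorts overlap for both roles. Within each number the guardian mean is higher in Sox9-GFP high cells by 0.04 to 0.25, but of the single guardians only *Ovol1* is.

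As a description over the 6 arrays, Pearson's r was 0.92 between *Snai2* and *Ovol1*, 0.91 between *Zeb1* and *Ovol1* and 0.90 between *Snai2* and *Zeb1*, and -0.81 between *Ovol1* and *Ovol2*. All pairs share the same 6 arrays, and the values of *Snai2* and *Zeb1* are among those that cannot be told from background. In *Ovol1* and *Zeb1* replicate 1 was highest and replicate 2 lowest within each sort. *Zeb1* and *Ovol1* had the largest differences of their role, and the named genes most like them over the 6 arrays were sought among 17123 genes, leaving out the regulators themselves, predicted and RIKEN genes, and olfactory and vomeronasal receptors. For *Zeb1* these were *Rimkla*, *Mier3*, *Gnai2*, *Morn3* and *Ammecr1l* (r from 0.986 to 0.996), and for *Ovol1* they were *Id3*, *Shld2*, *Slc35f4*, *Slc35e1* and *Actn4* (r from 0.991 to 0.996). None of these 10 genes was called between the sorts. They were picked for their likeness to *Zeb1* and *Ovol1*, which were not called without the block either, so this is no separate result.

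Other regulators of the mesenchymal state gave 2 genes that rose and 0 that fell among 17 measured, with a median difference of 0.09. The background is 4.0% of probe sets called higher and 3.20% called lower. *Tcf4*, which encodes the E protein E2-2, a partner of TWIST factors, had values of 13.97, 13.61 and 13.94 in Sox9-GFP high cells and 12.52, 12.23 and 12.90 in Sox9-GFP low cells. It was 2.45-fold higher (adjusted p = 0.00611 from limma). *Foxc1*, a forkhead factor of basal-like breast cancer, had values of 10.50, 10.18 and 10.01 against 9.29, 9.11 and 9.05 and was 2.11-fold higher (adjusted p = 0.00798). For both genes every Sox9-GFP high array lay above every Sox9-GFP low array, as in 14.1% of all probe sets. *Tcf4* lost its call without replicate 1 of both sorts (adjusted p = 0.0621), and *Foxc1* without replicate 2 (0.0629) or 3 (0.0618) of both. *Twist2* and *Prrx1*, factors of fibroblasts, lay between 2.62 and 2.95 and between 2.18 and 2.85 and were not called (adjusted p = 0.800 and 0.889). *Snai3*, the third SNAI paralog, had a difference of 0.45 that did not pass (adjusted p = 0.156), with no overlap between the sorts.

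Among 15 measured regulators of the epithelial state other than the 5 guardians, 1 rose, 3 fell and 11 did not pass. Their median difference was -0.15, beside 4.0% of all probe sets called higher and 3.20% lower. *Elf5*, the ETS factor of alveolar luminal cells, had values of 5.65, 6.72 and 6.59 in Sox9-GFP high cells and 8.79, 10.47 and 9.0 in Sox9-GFP low cells, 8.57-fold lower (adjusted p = 0.00268 from limma). *Tfap2c*, an AP-2 factor of luminal cells, had values of 8.70, 8.64 and 9.02 against 10.34, 10.04 and 10.28, 2.70-fold lower (adjusted p = 0.00187). *Tfap2a*, its paralog, had values of 10.37, 9.62 and 9.80 against 11.0002, 10.65 and 11.41, 2.13-fold lower (adjusted p = 0.0298). The gene that rose was *Klf4*, a Kruppel-like factor of epithelial differentiation, with values of 14.23, 14.16 and 14.0025 against 13.42, 13.02 and 13.19, 1.89-fold higher (adjusted p = 0.0132). *Elf5* and *Tfap2c* were called in each of the 9 leave-out fits, *Klf4* in the 6 that omitted 1 array (adjusted p = 0.0534 to 0.102 without a number) and *Tfap2a* in 2. *Tfap2a* lost its call without Sox9-GFP high replicate 2 (0.0937) or 3 (0.103), Sox9-GFP low replicate 1 (0.0704) or 3 (0.0973), or any number.

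The paralogs of the guardians themselves were not called. *Esrp2*, which shares the splicing role of *Esrp1*, had values of 12.05, 11.12 and 10.75 in Sox9-GFP high cells and 12.29, 11.78 and 11.82 in Sox9-GFP low cells. It was lower within each number, but the sorts overlapped and the difference of -0.66 did not pass (adjusted p = 0.269 from limma, and 0.0672 with the block). *Grhl3*, the grainyhead-like factor of the skin barrier, lay between 6.07 and 6.45 with a difference of 0.06 (adjusted p = 0.912).

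Of 26 measured epithelial junction and polarity genes, on which the drivers and guardians act, 1 rose, 0 fell and 25 did not pass. Their median difference was 0.05, beside 4.0% of all probe sets called higher and 3.20% lower (7 genes had an unadjusted p under 0.05, beside 20.6% of all probe sets). *Cdh1*, also held by the list of epithelial-state regulators, encodes E-cadherin. The classic gene repressed by SNAI and ZEB factors, it had values of 17.52, 17.23 and 17.56 against 17.24, 16.98 and 17.34, with a difference of 0.25 (interval -0.16 to 0.66, adjusted p = 0.514 from limma). *Epcam* had values of 15.23, 14.96 and 14.95 against 15.16, 14.86 and 15.18, with a difference of -0.02 (adjusted p = 0.972). An antibody to its protein is among the study's sorting reagents, and the sources used here do not say how the luminal gate used it. *Crb3*, a polarity gene repressed by ZEB1 in human cells, lay between 12.66 and 13.14 with a difference of 0.13 (adjusted p = 0.768). *Epcam* and *Crb3*, whose windows with 2 and 3 E-boxes are printed above, lay far above the array medians in both sorts. Whether the E-boxes bear on these levels was not tested.

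The junction gene that rose was *Dsp*, encoding the desmosome protein desmoplakin, with values of 14.002, 13.04 and 13.15 against 12.27, 11.91 and 12.59, 2.21-fold higher (adjusted p = 0.0363 from limma). It was called in 2 of the 9 leave-out fits, and lost its call without Sox9-GFP high replicate 1 (0.0859) or 3 (0.0625), Sox9-GFP low replicate 1 (0.0805) or 2 (0.117), or any number. With the replicate block 2 junction genes were higher and 2 lower, beside 6.32% and 4.99% of all probe sets. The higher ones were *Dsp* and *Patj*, a scaffold of apical polarity (difference 0.76, adjusted p = 0.145 without and 0.0404 with the block). The lower ones were *Marveld2*, a protein of tricellular junctions (-0.64, 0.0641 without and 0.0366 with it), and *Ap1m2*, an epithelial sorting adaptor (-0.76, 0.102 without and 0.0214 with it).

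Genes of the mesenchymal programme gave 2 that rose and 1 that fell among 24 measured, and 21 that did not pass. Their median difference was 0.16, beside 4.0% of all probe sets called higher and 3.20% lower. *Axl*, a receptor tyrosine kinase of mesenchymal and invasive cells, had values of 8.63, 7.86 and 8.19 in Sox9-GFP high cells and 6.97, 5.32 and 6.59 in Sox9-GFP low cells, 3.82-fold higher (adjusted p = 0.0143 from limma). *Itga5*, the fibronectin receptor subunit, had values of 8.38, 7.72 and 7.86 against 6.36, 5.57 and 6.30, 3.75-fold higher (adjusted p = 0.00248). *Dcn*, the matrix proteoglycan decorin, had values of 9.44, 9.95 and 8.93 against 11.64, 11.92 and 11.42, 4.67-fold lower (adjusted p = 0.00122). For these 3 genes the sorts did not overlap, as in 25.5% of all probe sets. *Itga5* and *Dcn* were called in each of the 9 leave-out fits, and *Axl* missed the threshold without Sox9-GFP high replicate 1 (0.0562) and without replicate 3 of both sorts (0.0931).

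*Vim* and *Cdh2*, named as textbook anchors of the list, were dim. *Vim*, encoding vimentin, had values of 5.0, 4.21 and 4.56 against 4.20, 4.35 and 4.45, and *Cdh2*, encoding N-cadherin, lay between 4.0 and 4.54. Neither was called (adjusted p = 0.596 and 0.910 from limma), and of the 24 genes 10 lay below the median on all arrays and 14 did not. With the replicate block 6 genes of the programme were higher and 2 lower, beside 6.32% and 4.99% of all probe sets. Those added to *Axl* and *Itga5* were *Postn*, encoding the matrix protein periostin (difference 2.45, adjusted p = 0.0617 without and 9.65e-04 with the block), *Fn1*, encoding fibronectin (1.49, 0.204 and 0.0232), *Sparc* (0.89, 0.388 and 0.0337) and the membrane protease gene *Mmp14* (0.76, 0.219 and 0.0204). The lower gene added to *Dcn* was *Tnc*, encoding tenascin C (-0.79, 0.187 and 0.0388). *Fn1* ranged from 9.81 in Sox9-GFP low replicate 2 to 13.65 in Sox9-GFP high replicate 1.

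**Figure D5:**
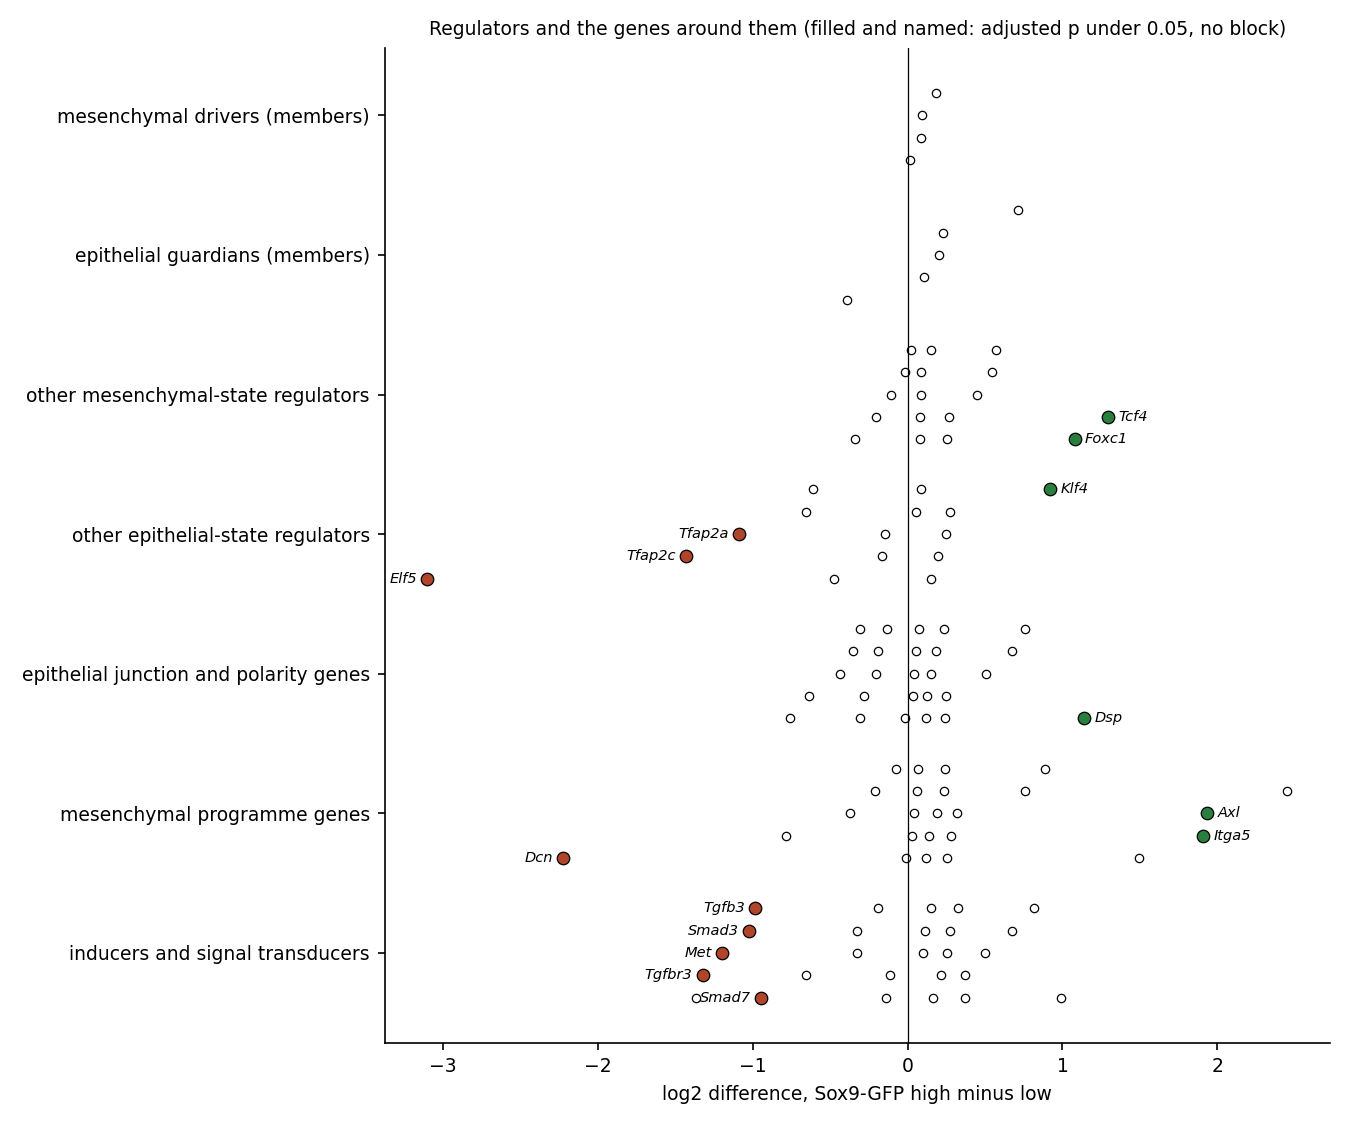
Log2 difference between the sorts (horizontal axis, Sox9-GFP high minus low) of every measured gene in each list, with 1 point per gene, and points spread vertically within a list only to keep them apart. Filled and named points passed at an adjusted p under 0.05 without the block, and the 9 regulators in the upper rows, from -0.39 to 0.71, are all open.

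Markers of other cells were read for the same arrays, because fibroblasts also make the drivers. The background was 4.0% of all probe sets called higher and 3.20% lower, and 6.32% and 4.99% with the replicate block. Of 9 measured fibroblast markers, *Dcn* was lower and 8 did not pass (with the block *Dpt* was lower too, 1.60-fold, adjusted p = 0.133 without and 0.0354 with it), and 6 lay below the median on all arrays. Their mean log2 level was 4.78 to 4.88 on the Sox9-GFP high arrays and 4.89 to 5.15 on the Sox9-GFP low arrays, and without *Dcn* that of the other 8 overlapped, at 4.20 to 4.28 against 4.07 to 4.31. Of 10 endothelial markers 0 were called by limma (1 at an unadjusted p under 0.05, and 1 lower in the blocked fit, *Eng*, whose adjusted p went from 0.124 to 0.0376), and their mean level was 4.19 to 4.45 against 4.33 to 5.06. Of these 10, 9 had a negative difference and 1 a positive one, with a median of -0.23, and 6 lay below the median on all arrays. Of 10 immune markers, 1 was lower, *Cd14*, which luminal progenitors also express, 5.0-fold (adjusted p = 8.63e-04), and 9 lay below the median on all arrays. Of 13 basal and myoepithelial markers 2 were higher, *Krt17* and *Mme*, and 0 lower (with the block also *Mylk*, 5.77-fold, adjusted p = 0.0604 without and 0.00263 with it), and 5 lay below the median on all arrays. Their directions were mixed, with 9 positive and 4 negative differences and a median of 0.28. The basal keratin *Krt14*, also on this list, was not called in either fit. Whether a share of other cells bears on *Dcn* or the other genes called was not tested.

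In the list of inducers and signal transducers, which also holds inhibitors of these signals, 0 of 26 measured genes rose and 5 fell. Their median difference was 0.11, and 4.0% of all probe sets were called higher and 3.20% lower. *Tgfbr3*, the TGF-beta co-receptor betaglycan, had values of 7.56, 7.35 and 7.57 in Sox9-GFP high cells and 9.31, 8.93 and 8.20 in Sox9-GFP low cells, 2.50-fold lower (adjusted p = 0.0149 from limma). *Met*, the receptor of hepatocyte growth factor, had values of 12.24, 11.41 and 11.89 against 13.37, 12.55 and 13.21, 2.29-fold lower (adjusted p = 0.0264). *Smad3*, a transducer of TGF-beta signals, was 2.03-fold lower (adjusted p = 0.0389), the ligand *Tgfb3* 1.98-fold (0.0332) and the inhibitory *Smad7* 1.93-fold (0.0412). For all 5 genes every Sox9-GFP high array lay below every Sox9-GFP low array, as in 11.4% of all probe sets.

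All 5 passed with the block and kept their direction in each of the 9 leave-out fits, at folds from 1.59 to 3.17, but their calls were lost in some. *Tgfbr3* was called in 5 of the 9 leave-out fits, *Met* in 3, *Smad3* in 2, and *Tgfb3* and *Smad7* in 1 each, with adjusted p from limma up to 0.198. Single arrays whose loss ended the call were Sox9-GFP high replicate 2 or Sox9-GFP low replicate 2 for *Tgfbr3* (0.0523 and 0.0518), Sox9-GFP high replicate 2 or 3 or Sox9-GFP low replicate 1 or 3 for *Met* (0.0745 to 0.0863), any but Sox9-GFP high replicate 1 for *Smad3* (0.0810 to 0.111) and *Tgfb3* (0.0570 to 0.119), and any but Sox9-GFP low replicate 3 for *Smad7* (0.0578 to 0.117). Omitting a number in both sorts also ended the call, numbers 1 and 2 for *Tgfbr3*, 1 and 3 for *Met*, 2 and 3 for *Smad3*, and any for *Tgfb3* and *Smad7*. The ligand *Tgfb1* and the receptor *Tgfbr2* were not called, at differences of -0.14 and 0.21 (adjusted p = 0.800 and 0.639).

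With the replicate block 2 genes of this list were higher and 6 lower, where 6.32% of all probe sets were called higher and 4.99% lower. *Tgfb2*, a TGF-beta ligand, had values of 15.04, 14.60 and 15.25 against 14.56, 13.53 and 14.33 (difference 0.82, adjusted p = 0.119 without and 0.0216 with the block in limma). *Jag1*, a Notch ligand, had a difference of 0.99 (0.315 without and 0.00758 with it), and the sixth lower gene was the cytokine *Il6*, at -1.36 (0.0825 without and 0.0232 with it).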

How the data were processed

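The deposited table holds the authors' log2 values for 6 one-colour arrays, 3 of each sort, with 1 row per probe set. The labels name the GeneChip WT PLUS kit, and software, normalization and background treatment were not given for these arrays in the sources used here (the paper names the Transcriptome Analysis Console for its knockout arrays). Precision is limited by the number of arrays. Of 22206 probe sets, 19572 carried 1 gene symbol, 0 several and 2634 are unnamed here. By gene identifier 19572 matched a RefSeq table (GRCm38.p6), with 0 symbols changed. The 10 regulators and all lists were chosen with earlier results of these data known. Where a gene had several probe sets, the one of highest mean over the 6 arrays stood for it.

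All probe sets were fitted in R 4.3.3 with limma 3.58.1 (lmFit, eBayes, two-sided, no block), with Benjamini-Hochberg adjustment over all of them and calls at an adjusted p under 0.05. Folds are log2 differences turned to the linear scale. The test was checked on simulated data drawn without any tie between arrays of equal number, so that check does not bear on their pairing. After each sort's mean was taken off, arrays of equal number correlated at 0.236, 0.232 and 0.218 and all others at -0.0604 or below. Equal numbers were therefore taken as pairs in a second fit, with the number as a replicate block. The main calls and the leave-out fits do not use this pairing. Values with the block are given where they change a call. This pairing comes from the values, not from a named animal.

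Named genes were all measured regulators, up to 4 called genes per list and direction with the largest difference, 10 textbook anchors and the 5 genes most like *Zeb1* and *Ovol1*. *Smad7*, *Snai3*, *Crb3*, *Krt8*, *Krt18*, *Krt19*, *Krt14*, *Krt17*, *Mme*, *Cd14* and the genes called with the block alone were chosen after their values were seen.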

Additional observations from a re-analysis of the deposited data

How the results depend on the processing

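Alternatives were the replicate block, quantile normalization, median centring, a filter on dim probe sets, array weights, a robust prior with a trend, omission of each array or number, and the methods' t-test. Each regulator has 1 probe set, so other probe sets gave no value, and *Snai2* was left out by the filter on dim probe sets. Without the block 888 probe sets were called higher and 711 lower, and with the replicate block 1404 and 1108. The block called 1 regulator higher (*Ovol1*, adjusted p = 0.0369, difference 0.71) and changed no other regulator's call. The methods' t-test called 2118 higher and 1647 lower unadjusted, and 1 and 2 after Benjamini-Hochberg, with 0 genes of the regulator, junction, programme and signal lists. Unadjusted, it called 1 regulator lower (*Ovol2*, exact permutation p = 0.10). Without an array or a number, 231 to 672 probe sets were called higher and 316 to 563 lower, the fewest higher without replicate 3 of both sorts, and 0 regulators in either direction. The difference of *Snai1* then ranged from -0.16 to 0.23 and that of *Grhl2* from -0.0198 to 0.21, so both changed sign, while the other 7 kept theirs. Under the other alternatives that gave a value all 9 kept their direction. Signal over background was not given.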
